A study of Mus musculus with 12 samples.

Results

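The 26 genes described here are those whose RNA peaked in unstimulated bone marrow-derived dendritic cells (BMDCs) labelled Pde5 knockout. They were taken from the 32190 gene symbols of the BMDC table and were chosen by their CPM, which is a count divided by the total of its library and scaled to 1000000. A gene had to reach 2 CPM in both unstimulated knockout-labelled libraries, and the lower of these values had to be at least 25% above the highest of the 6 other BMDC libraries. The rule was met by 31 genes, of which Nos2, Arg1, Saa3, Fpr1 and Fpr2 were left out by name, and Slc7a2, also named for leaving out, did not meet it (ratio 0.948). Because these values chose the genes, their height in the unstimulated knockout-labelled libraries is a description and was not tested.

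The study held 12 mouse RNA-seq libraries in 6 groups of 2. The BMDC groups were labelled Pde5 knockout without stimulation, Pde5 knockout with lipopolysaccharide (LPS, a bacterial ligand of Toll-like receptor 4) at 200 ng/ml for 12 h, wild type (WT) with the same LPS treatment, and unstimulated WT. The tumoral dendritic cells (DCs), labelled WT, were sorted at a late stage (day 14) and an early stage (day 7) from mice that carried MC38, a colon carcinoma line, and a Zbtb46-driven TdTomato reporter, which marks conventional DCs. The sources used here do not give the deleted part of Pde5, the strain or age of the animals, or how the BMDCs were grown. Nothing in the labels states that paired replicates were separate mice or cultures, and every p-value therefore reflects a spread that may be only technical.

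Dendritic cells sense microbes, take up antigen and prime T cells, and LPS switches on their inflammatory and interferon genes. PDE5 degrades cyclic GMP, a second messenger. Among the genes are those of the neighbouring ectoenzymes Cd38 and Bst1, which consume nicotinamide adenine dinucleotide (NAD) outside the cell. Others act on the actin skeleton, transport solutes or break down amino acids.

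The BMDC libraries held 16.1 to 19.7 M counts each and the tumoral ones 14.2 to 19.3 M. Enough counts for a test were found for 13072 genes in the BMDCs and 13040 in the tumoral DCs. All 26 genes were among the 13072. The BMDC libraries held the DC genes Zbtb46 (124 to 254 CPM), Flt3 (410.3 to 460.2), Itgax (81.1 to 188) and H2-Ab1 (1041 to 3739). The summed level of 14 conventional DC markers was 18276 and 23706 CPM in the late and 22688 and 28120.5 CPM in the early tumoral libraries. In the BMDCs this sum was 14959 and 19796 CPM in the unstimulated knockout-labelled, 14993 and 13809 in the LPS knockout-labelled, 13697 and 17826 in the WT LPS and 23818 and 25941 in the WT unstimulated libraries, which were thus the highest. Most of it came from Cd74, H2-Ab1, H2-Aa and H2-Eb1 (9486, 3325, 4208 and 3752 CPM in WT unstimulated replicate 1). Zbtb46 and Irf8, also in the list, were instead lowest in the WT unstimulated libraries. Zbtb46 had 134 and 124 CPM there and 230 and 187 in the unstimulated knockout-labelled libraries. It had 238 and 254 CPM in the LPS knockout-labelled and 253 and 241 in the WT LPS libraries. Clec9a, a receptor for dead cells on type 1 conventional DCs (cDC1), had 11.9 and 13.9 CPM in the unstimulated knockout-labelled, 5.75 and 7.45 in the LPS knockout-labelled, 7.17 and 10.7 in the WT LPS and 41.7 and 53.5 in the WT unstimulated libraries. Pde5a had 47 and 61 counts in the unstimulated knockout-labelled, 22 and 43 in the LPS knockout-labelled, 52 and 20 in the WT LPS and 55 and 37 in the WT unstimulated libraries, and the ranges of both labels overlapped. The unstimulated knockout-labelled libraries also stood near the LPS libraries. Isg15, an interferon-induced ubiquitin-like protein, had 274 and 161 CPM in them, against 268 and 269 in the LPS knockout-labelled, 413 and 328 in the WT LPS and 13.4 and 20.7 in the WT unstimulated libraries. Between the LPS and the unstimulated knockout-labelled libraries edgeR called 0 genes at an adjusted p under 0.05 (2800 at an unadjusted p under 0.05), DESeq2 called 765, and edgeR called 615 without unstimulated knockout-labelled replicate 1. Between the WT LPS and WT unstimulated libraries edgeR called 4910. The part of this nearness and of the DC markers in the pattern of the 26 genes was not tested.

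The same rule applied to each of the other groups in turn was met by 65 genes for the LPS knockout-labelled libraries, 10 for the WT LPS libraries and 1208 for the WT unstimulated libraries. With TMM scaling (trimmed mean of M-values, in place of library totals) these counts were 90, 15 and 790, and 31 genes, not all of them the same, met it for the unstimulated knockout-labelled libraries. The lower unstimulated knockout-labelled value was 1.5 to 2 times the highest other library for 11 genes and less than 1.5 times for 15, and no gene reached 2 times. The largest ratio was that of Hp (just under 2 times), followed by Bst1 (1.84) and Gli1 (1.79). Among genes with a mean of 10 CPM or more in the unstimulated knockout-labelled libraries, those just inside the limit, by the lower unstimulated knockout-labelled value against the highest other library, were Ms4a4a (44.0 against 35.0 CPM), Ctif (16.9 against 13.4) and Prodh (10.1 against 7.86). Just outside it were Slc39a14 (24.2 against 19.4 CPM), Spata31d1b (63.8 against 51.7) and Vcan (13.8 against 11.2). Genes at lower levels lay as near to it, with Slc2a9 (ratio 1.26), Farp1 (1.26) and Prpf40b (1.27) inside and Timp1 (1.248), Serpinb2 (1.24) and Pelo (1.24) outside. When libraries were scaled by TMM, C1rl, Ctif, Kcnk7, Ms4a4a, Prodh, Prpf40b, Rhof and Slc2a9 were below the limit, with ratios of 1.16 to 1.23. The highest other library was an LPS knockout-labelled one for 12 genes, a WT LPS one for 10 and a WT unstimulated one for 4 (Ttc9, Dab2, Afmid and Farp1). Replicate 1 was the higher unstimulated knockout-labelled library for 20 of the 26 genes, while it was the higher one for 42.3% of all 10980 genes compared.

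**Figure D1:**
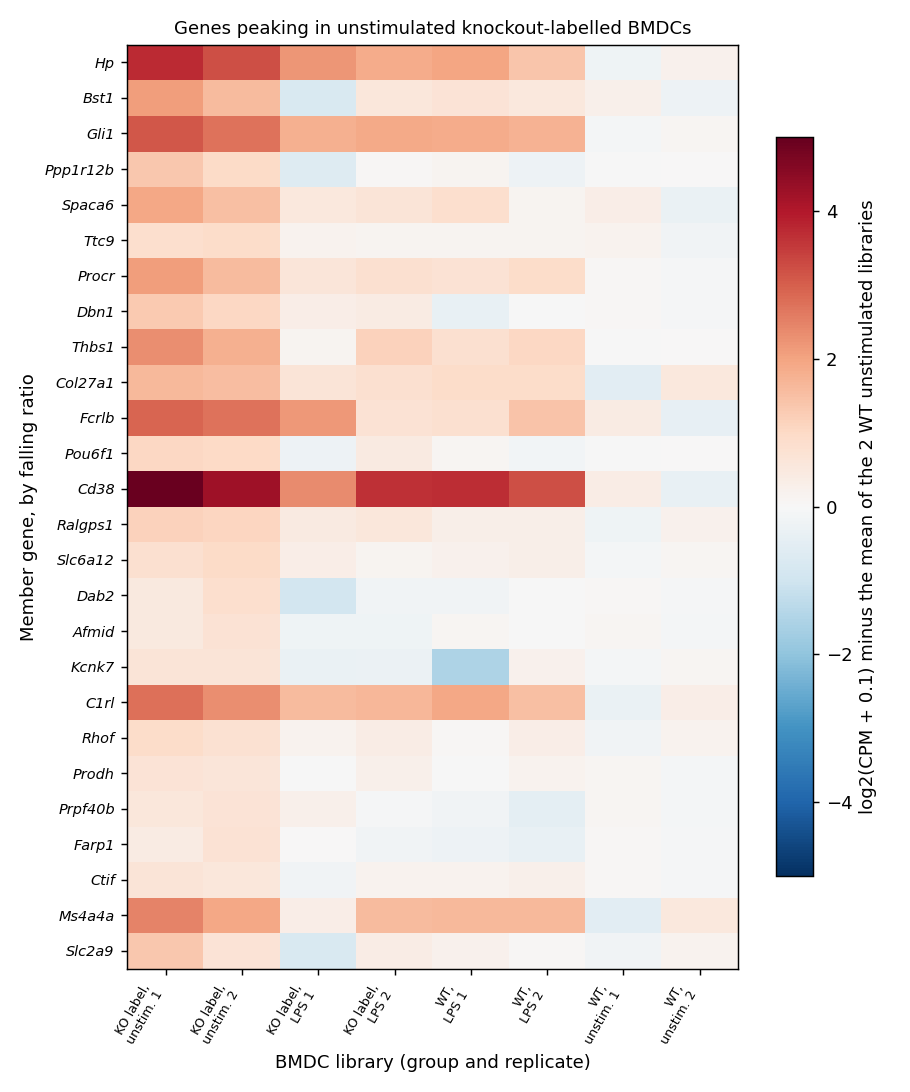
Level of each of the 26 genes (rows, by falling ratio) in each BMDC library (columns), as log2(CPM + 0.1) minus the mean of the WT unstimulated libraries. The 2 left columns, which chose the genes, are the highest in every row. Cd38, Hp, Gli1, C1rl, Procr, Thbs1, Col27a1, Fcrlb, Ralgps1 and Slc6a12 also lay above the WT unstimulated libraries in all 4 LPS libraries. Some margins were small, as for Thbs1 (82.99 against 76.4 CPM) and Slc6a12 (5.54 against 5.40). Of all genes tested, 23.6% had both WT LPS and 26.7% both LPS knockout-labelled libraries above both WT unstimulated ones. The rule used these libraries, so this pattern is not independent of the choice.

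Secreted and surface proteins and their relatives made up 9 of the 26 genes. Hp, which encodes the hemoglobin-binding plasma protein haptoglobin (chromosome 8, 109575128 to 109579172, minus strand, GRCm38), had 33.2 and 23.2 CPM in the unstimulated knockout-labelled libraries, against 11.6 and 8.87 in the LPS knockout-labelled, 9.70 and 6.46 in the WT LPS and 2.07 and 2.79 in the WT unstimulated libraries. Both unstimulated knockout-labelled values stood above all 6 others, the LPS libraries of both labels overlapped and lay between, and the WT unstimulated libraries were lowest. The mean was 28.2 ± 7.08 CPM in the unstimulated knockout-labelled libraries and 2.43 ± 0.508 CPM in the WT unstimulated libraries (SD, n = 2 each), a ratio of 11.6. Procr, the endothelial protein C receptor, had 88.6 and 62.6 CPM in the unstimulated knockout-labelled libraries, against 31.7 and 37.0 in the LPS knockout-labelled, 34.6 and 40.1 in the WT LPS and 21.7 and 20.2 in the WT unstimulated libraries. It followed the same order of groups. Thbs1, which encodes the matricellular glycoprotein thrombospondin-1, had 376 and 262 CPM in the unstimulated knockout-labelled libraries, against 82.99 and 169 in the LPS knockout-labelled, 132 and 157 in the WT LPS and 75.3 and 76.4 in the WT unstimulated libraries. Of the LPS knockout-labelled libraries, replicate 1 was close to the WT unstimulated level and replicate 2 was above both WT LPS libraries.

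Cd38 (chromosome 5, 43868809 to 43912374, plus strand) and Bst1 (chromosome 5, 43818880 to 43843468, plus strand) lie 25.3 kb apart. Cd38 had 36.0 and 21.8 CPM in the unstimulated knockout-labelled libraries, against 5.92 and 14.7 in the LPS knockout-labelled, 15.1 and 10.7 in the WT LPS and 1.42 and 0.806 in the WT unstimulated libraries. The WT unstimulated values were far below all others, and the LPS groups overlapped. Its mean in the unstimulated knockout-labelled libraries was 25.9 times that of the WT unstimulated and 2.23 times that of the WT LPS libraries. Bst1, also called CD157, had 19.0 and 13.3 CPM in the unstimulated knockout-labelled libraries, against 2.53 and 6.55 in the LPS knockout-labelled, 7.23 and 6.46 in the WT LPS and 5.33 and 3.66 in the WT unstimulated libraries. LPS knockout-labelled replicate 1 was the lowest of all, and both WT LPS values were above both WT unstimulated values. The difference between the neighbours was not tested. A stretch of 98 exon bases of Bst1 (2.95%) overlaps Fbxl5 on the other strand, and the sources used here do not give the strand setting of the counts. The like holds for Gli1 (1.24%, Arhgap9) and Afmid (2.35%, Tk1).

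Ms4a4a, a membrane-spanning protein of myeloid cells, had 63.1 and 44.0 CPM in the unstimulated knockout-labelled libraries, against 14.3 and 34.4 in the LPS knockout-labelled, 34.8 and 35.0 in the WT LPS and 7.88 and 16.3 in the WT unstimulated libraries. LPS knockout-labelled replicate 1 was again the low one of its pair and lay within the range of the WT unstimulated libraries. Col27a1, a fibrillar collagen, had 27.2 and 25.1 CPM in the unstimulated knockout-labelled libraries, against 13.6 and 15.1 in the LPS knockout-labelled, 16.5 and 16.4 in the WT LPS and 6.04 and 12.4 in the WT unstimulated libraries. C1rl, a protease related to complement C1r, had 4.80 and 3.51 CPM in the unstimulated knockout-labelled libraries, against 2.07 and 2.204 in the LPS knockout-labelled, 2.69 and 1.96 in the WT LPS and 0.474 and 0.806 in the WT unstimulated libraries. Its level followed the order seen for Hp, with the WT unstimulated libraries lowest. Fcrlb, an Fc receptor-like protein, was near the lower limit of the rule, with 2.75 and 2.44 CPM in the unstimulated knockout-labelled libraries, against 1.61 and 0.536 in the LPS knockout-labelled, 0.560 and 0.923 in the WT LPS and 0.415 and 0.186 in the WT unstimulated libraries. Its counts were 51 and 48 in the unstimulated knockout-labelled and 7 and 3 in the WT unstimulated libraries, so its fold rests on few reads. Per kilobase of exon, Ms4a4a (64.0 CPM per kb), Thbs1 (52.6), Procr (37.2) and Hp (17.6) had the highest mean levels of the 26 genes in the unstimulated knockout-labelled libraries.

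**Figure D2:**
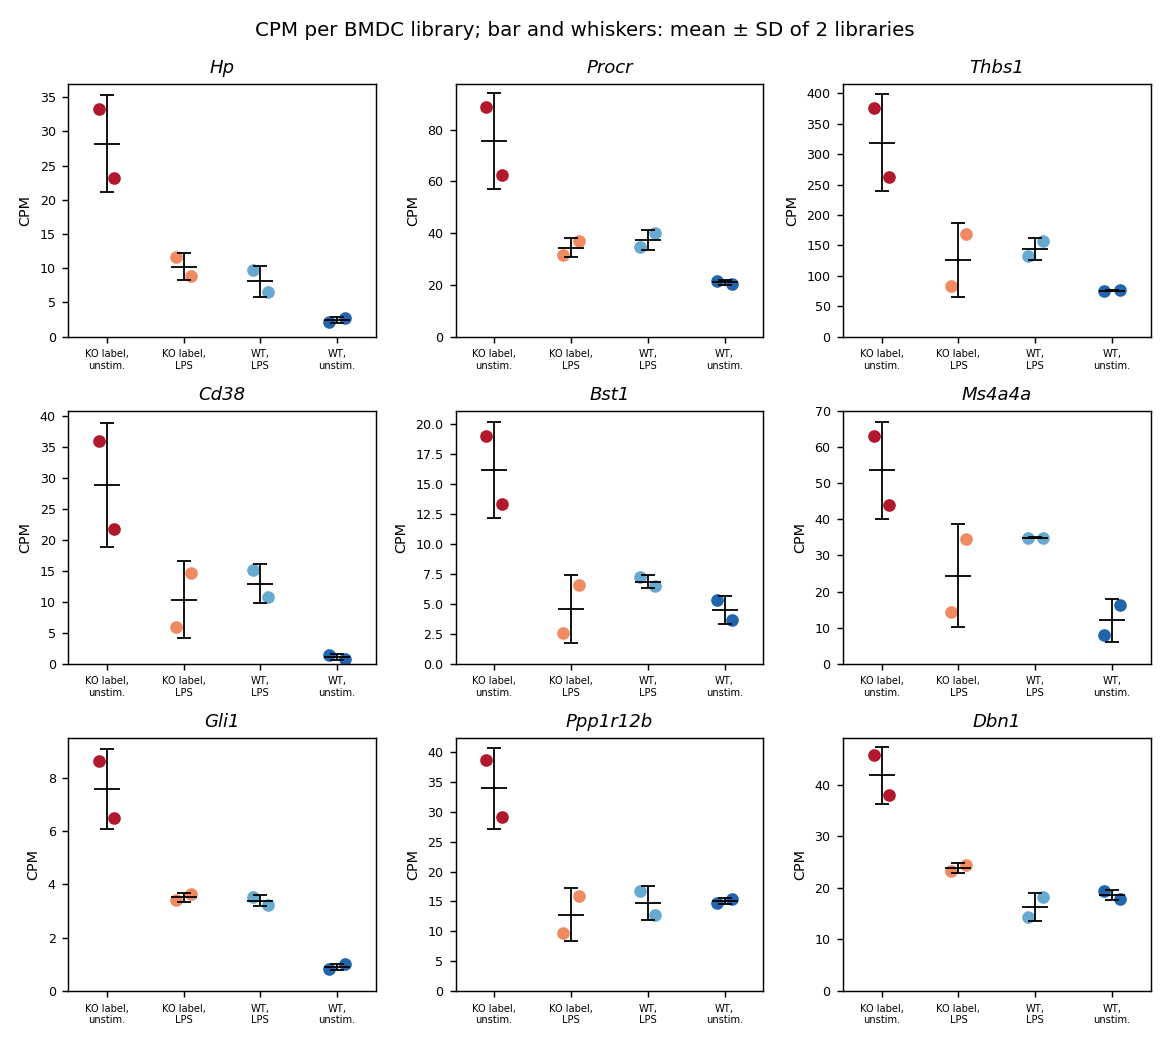
CPM of 9 of the genes in each BMDC library (points, in the order replicate 1 and 2), with the group mean ± SD (bar and whiskers, n = 2). In each panel both unstimulated knockout-labelled points lie above all others. The WT unstimulated points are lowest for Hp, Procr, Thbs1, Cd38 and Gli1, but not for Bst1, Ms4a4a, Ppp1r12b and Dbn1, where they overlap an LPS group.

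Regulators of actin, myosin and small GTPases made up 5 genes. Ppp1r12b, a regulatory subunit of myosin phosphatase, had 38.8 and 29.1 CPM in the unstimulated knockout-labelled libraries, against 9.66 and 15.9 in the LPS knockout-labelled, 16.8 and 12.7 in the WT LPS and 14.7 and 15.4 in the WT unstimulated libraries. The other 6 libraries lay close together, with LPS knockout-labelled replicate 1 lowest. Dbn1, the actin-binding protein drebrin, had 45.7 and 37.9 CPM in the unstimulated knockout-labelled libraries, against 23.2 and 24.5 in the LPS knockout-labelled, 14.3 and 18.2 in the WT LPS and 19.3 and 17.9 in the WT unstimulated libraries. Both LPS knockout-labelled values were above both WT LPS values. Rhof, a small GTPase that drives filopodia, had 41.2 and 36.6 CPM in the unstimulated knockout-labelled libraries, against 23.9 and 28.1 in the LPS knockout-labelled, 22.6 and 27.1 in the WT LPS and 19.0 and 24.2 in the WT unstimulated libraries, and 11.4% of its exon bases overlap Tmem120b on the other strand. Ralgps1, an exchange factor for Ral GTPases, had 12.6 and 11.7 CPM unstimulated with the knockout label, against 7.59 and 8.34 with that label and LPS, 6.89 and 6.87 in WT with LPS and 4.74 and 6.51 in unstimulated WT. Farp1, an exchange factor for small GTPases, was low, with 2.70 and 3.40 CPM unstimulated with the knockout label, against 2.07 and 1.79 with that label and LPS, 1.68 and 1.56 in WT with LPS and 2.13 and 1.92 in unstimulated WT. The 6 other libraries of Farp1 lay between 1.56 and 2.13 CPM.

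Regulators of transcription, RNA and translation made up 4 genes. Gli1, the transcription factor and target of Hedgehog signalling (chromosome 10, 127329882 to 127341579, minus strand), had 8.63 and 6.50 CPM in the unstimulated knockout-labelled libraries, against 3.39 and 3.63 in the LPS knockout-labelled, 3.53 and 3.23 in the WT LPS and 0.829 and 0.992 in the WT unstimulated libraries. The 4 LPS values lay within a narrow range between the other groups, and none overlapped the WT unstimulated values. Pou6f1, a POU domain transcription factor, had 6.15 and 5.84 CPM unstimulated with the knockout label, against 2.42 and 4.05 with that label and LPS, 3.08 and 2.65 in WT with LPS and 2.84 and 2.98 in unstimulated WT. Prpf40b, a splicing factor, had 5.99 and 6.35 CPM unstimulated with the knockout label, against 4.72 and 3.81 with that label and LPS, 3.47 and 2.77 in WT with LPS and 4.21 and 3.72 in unstimulated WT. Ctif, a translation factor that works with the nuclear cap-binding complex, had 17.6 and 16.9 CPM unstimulated with the knockout label, against 10.01 and 12.9 with that label and LPS, 12.8 and 13.4 in WT with LPS and 11.9 and 10.8 in unstimulated WT. Both WT LPS values of Prpf40b were below all others, while both WT LPS values of Ctif were above both WT unstimulated values.

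Transport, metabolism and uptake made up 6 genes. Dab2, an adaptor of clathrin-mediated endocytosis, had 29.1 and 37.0 CPM in the unstimulated knockout-labelled libraries, against 11.1 and 18.2 in the LPS knockout-labelled, 18.3 and 20.4 in the WT LPS and 21.6 and 20.1 in the WT unstimulated libraries. LPS knockout-labelled replicate 1 was the lowest of the 8 libraries. Slc6a12, a transporter of betaine and GABA, had 8.74 and 9.91 CPM unstimulated with the knockout label, against 6.27 and 5.54 with that label and LPS, 5.77 and 6.12 in WT with LPS and 4.62 and 5.40 in unstimulated WT. Slc2a9, a transporter of urate, had 4.86 and 2.997 CPM unstimulated with the knockout label, against 1.04 and 2.38 with that label and LPS, 2.13 and 1.90 in WT with LPS and 1.60 and 2.11 in unstimulated WT. Kcnk7, of the family of pore-forming potassium channel subunits, had 3.18 and 3.15 CPM unstimulated with the knockout label, against 1.55 and 1.61 with that label and LPS, 0.616 and 2.37 in WT with LPS and 1.84 and 2.17 in unstimulated WT. These 3 transport genes stayed under 10 CPM in every BMDC library, and WT LPS replicate 1 of Kcnk7 was the lowest of its 8 values. Prodh, which starts the breakdown of proline, had 10.8 and 10.1 CPM unstimulated with the knockout label, against 6.50 and 7.86 with that label and LPS, 6.56 and 7.44 in WT with LPS and 7.11 and 6.14 in unstimulated WT. Afmid, the formamidase of the kynurenine pathway, had 7.12 and 8.28 CPM unstimulated with the knockout label, against 4.31 and 4.23 with that label and LPS, 5.32 and 4.96 in WT with LPS and 5.33 and 4.65 in unstimulated WT. Afmid was lowest in both LPS knockout-labelled libraries, and the groups of Prodh other than the unstimulated knockout label overlapped. The remaining 2 genes have other roles. Spaca6, a membrane protein of sperm needed for fusion with the egg, had 6.64 and 4.88 CPM unstimulated with the knockout label, against 2.47 and 2.68 with that label and LPS, 3.03 and 1.85 in WT with LPS and 2.13 and 1.30 in unstimulated WT. Ttc9, a tetratricopeptide repeat protein, had 3.99 and 4.27 CPM unstimulated with the knockout label, against 2.53 and 2.44 with that label and LPS, 2.41 and 2.42 in WT with LPS and 2.55 and 1.92 in unstimulated WT. Both stayed under 10 CPM, and for both a WT LPS value lay within the range of the LPS knockout-labelled or WT unstimulated values.

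All 26 genes are protein-coding in the RefSeq table of GRCm38.p6 and lie on 16 chromosomes. The span of Spaca6 also holds the microRNA genes Mir99b, Mirlet7e and Mir125a, which had at most 2 counts in any BMDC library and were not measured by these libraries. Of 38 lists of pathway genes and cell type markers, the set shared Thbs1 with a list of actin, integrin and motility genes and Prodh with a list of arginine and nitric oxide genes, and it shared none with the others. Of the 29 tested genes of the first list, 9 were higher and 12 lower in the WT LPS libraries than in the WT unstimulated ones (median log2 fold change -0.27). Of the 13 of the second, 3 were higher and 4 lower (median -0.31). Of the 34 genes of a type I interferon list, none of which met the rule, all 34 were higher in that comparison.

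Promoters of 20 of the 26 genes, 250 bases before to 50 after the start, were found in RefSeq (GRCm38.p6). They are shown for Cd38, which had the largest LPS response of the set in WT cells. Also shown are 3 genes, Procr, Ms4a4a and Slc6a12, with a window that holds letters of a motif of LPS-activated factors. Fcrlb, Slc2a9 and Prpf40b have such a window too and are not shown. Capitals mark AP-1 (TGANTCA) and NF-kB (GGGANTTTC) matches on either strand. The windows are chr5:43868559-43868858 (plus strand) for Cd38, chr2:155750967-155751266 (plus) for Procr, chr19:11375238-11375537 (plus) for Ms4a4a and chr6:121342324-121342623 (plus) for Slc6a12.
Cd38: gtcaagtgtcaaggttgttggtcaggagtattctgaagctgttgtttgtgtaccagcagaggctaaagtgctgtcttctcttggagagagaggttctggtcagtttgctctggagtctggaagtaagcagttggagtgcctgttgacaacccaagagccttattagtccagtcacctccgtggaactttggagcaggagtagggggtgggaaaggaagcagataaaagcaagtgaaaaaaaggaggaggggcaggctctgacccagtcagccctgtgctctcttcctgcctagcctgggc
Procr: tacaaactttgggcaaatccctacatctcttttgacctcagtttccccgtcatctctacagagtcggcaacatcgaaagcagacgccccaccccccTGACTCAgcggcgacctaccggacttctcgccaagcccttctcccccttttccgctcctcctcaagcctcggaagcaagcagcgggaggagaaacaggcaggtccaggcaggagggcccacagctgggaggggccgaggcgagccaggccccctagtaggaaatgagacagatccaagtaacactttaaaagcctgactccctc
Ms4a4a: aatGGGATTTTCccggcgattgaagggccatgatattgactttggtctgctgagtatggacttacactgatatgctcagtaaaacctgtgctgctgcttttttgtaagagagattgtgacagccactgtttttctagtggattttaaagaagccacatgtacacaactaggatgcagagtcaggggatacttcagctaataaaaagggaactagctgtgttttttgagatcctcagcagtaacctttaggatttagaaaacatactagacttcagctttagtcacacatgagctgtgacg
Slc6a12: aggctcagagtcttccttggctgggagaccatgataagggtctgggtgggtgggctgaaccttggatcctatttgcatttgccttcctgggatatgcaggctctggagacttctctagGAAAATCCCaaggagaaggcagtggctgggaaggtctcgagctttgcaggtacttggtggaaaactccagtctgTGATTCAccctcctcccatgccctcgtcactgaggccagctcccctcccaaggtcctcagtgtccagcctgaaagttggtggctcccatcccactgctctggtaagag
Procr has an AP-1 match that begins 154 bases before the start, Ms4a4a an NF-kB match at 247 bases, and Slc6a12 an NF-kB match at 132 and an AP-1 match at 58 bases before it. The window of Cd38 holds neither, and the other windows of Slc6a12, not shown, hold neither.

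A gene was counted if any of its windows held the letters, and the 20 genes had 27 windows. Among the 20 genes, AP-1 matches were found in Fcrlb, Procr, Slc2a9 and Slc6a12 (20.0% of genes, against 6.38% of the 10301 genes tested that have a promoter). NF-kB matches were found in Ms4a4a, Prpf40b and Slc6a12 (15% against 1.24%), and matches of the interferon-response letters GAAANNGAA in 5 genes (25.0% against 8.80%). Slc6a12, with 5 windows, was counted for each of these motifs. By window the shares were 14.8% (AP-1), 11.1% (NF-kB) and 22.2% (GAAANNGAA). Of all 23047 windows they were 7.32%, 1.11% and 8.15%. C/EBP letters (TTNNGNAA) were in 9 genes (45.0% against 36.1%), the ETS letters AGGAAG in 7 (35.0% against 37.9%), and the GC box GGGCGG in 9 (45.0% against 67.4%). No window held TATAAA (8.63% of these genes) or TGACGTCA (3.49%). The antioxidant letters TGACNNNGC were in 5 (25.0% against 17.0%), ACGTG in 5 (25.0% against 29.1%), CACGTG, which contains ACGTG, in 2 (10% against 11.5%), and TGACG, which TGACGTCA contains, in 5 (25.0% against 34.9%). Matches were sought on both strands and are a description of letters, not of binding.

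The comparison of WT LPS with WT unstimulated BMDCs asked which of the genes respond to LPS in groups other than the one where the set peaks. The rule caps both groups but does not order them. It used the values of both, however, and the group where the set peaks stood near the LPS libraries. The choice may therefore favour genes that are higher with LPS, and the counts for the set are not independent of it. Of the 26 genes, 8 rose with LPS and 0 fell. Over all 13072 genes tested, 20.0% rose and 17.6% fell. The median log2 fold change was 0.43 for the 26 genes and -0.02 for all genes tested, and 23 of the 26 values were positive. DESeq2 also called 8 genes higher and 0 lower. The next shares rest on CPM over library totals, without the TMM scaling of the fit. On that scale both WT LPS libraries were above both WT unstimulated libraries for 13 of the 26 genes (23.6% of all genes tested). They were below both for 2 (50.4%). Scaling by library size alone shifted the median of all genes by -0.20 on the log2 scale and turned the split of all calls to 1689 higher and 3728 lower, against 2609 and 2301 with TMM, and 7 of the 26 genes were then called, all higher. Markers of cell types also differed between these groups. Of 19 tested monocyte and macrophage markers 9 were higher and 4 lower with LPS (median log2 fold change 0.91), and of 11 cDC1 markers 2 were higher and 8 lower (median -2.02). Their part in the changes of the 26 genes was not tested.

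Cd38 had the largest change, with 12.9 ± 3.11 CPM in WT LPS and 1.11 ± 0.435 CPM in WT unstimulated libraries (log2 fold change 3.72 with SE 0.59, edgeR adjusted p = 0.00355). Gli1 averaged 3.38 ± 0.212 CPM with LPS and 0.911 ± 0.115 CPM without (log2 fold change 2.09 with SE 0.30, edgeR adjusted p = 0.00136). C1rl averaged 2.33 ± 0.515 CPM with LPS and 0.640 ± 0.235 CPM without (log2 fold change 2.06 with SE 0.40, edgeR adjusted p = 0.00501). In these genes and in Hp (log2 fold change 1.94 with SE 0.31, edgeR adjusted p = 0.00223) as well as Procr (log2 fold change 1.04 with SE 0.19, edgeR adjusted p = 0.00402) the WT groups did not overlap, and the call was made under all 13 alternatives. Ms4a4a (log2 fold change 1.74 with SE 0.48, edgeR adjusted p = 0.0284), Thbs1 (log2 fold change 1.13 with SE 0.34, edgeR adjusted p = 0.0385) and Col27a1 (log2 fold change 1.04 with SE 0.27, edgeR adjusted p = 0.018) were also called. The call for Thbs1 was made under 4 of 13 alternatives (adjusted p 0.000202 to 0.161), that for Ms4a4a under 7 (0.00983 to 0.132) and that for Col27a1 under 11 (0.00116 to 0.0732). Without WT LPS replicate 1, and likewise without WT LPS replicate 2, 5 genes were called.

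Genes not called included Bst1 (log2 fold change 0.80 with SE 0.43, edgeR adjusted p = 0.174), Fcrlb (log2 fold change 1.47 with SE 0.71, edgeR adjusted p = 0.134), Dbn1 (log2 fold change 0.01 with SE 0.16, edgeR adjusted p = 0.966) and Ppp1r12b (log2 fold change 0.17 with SE 0.26, edgeR adjusted p = 0.645). Together with Pou6f1, Dab2, Farp1, Prpf40b and Kcnk7, whose log2 fold changes lay between -0.23 and 0.18, these make 9 genes that peaked in the unstimulated knockout-labelled libraries without a call for LPS in WT. The other 9 without a call had log2 fold changes of 0.24 (Afmid) to 0.70 (Spaca6).

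**Figure D3:**
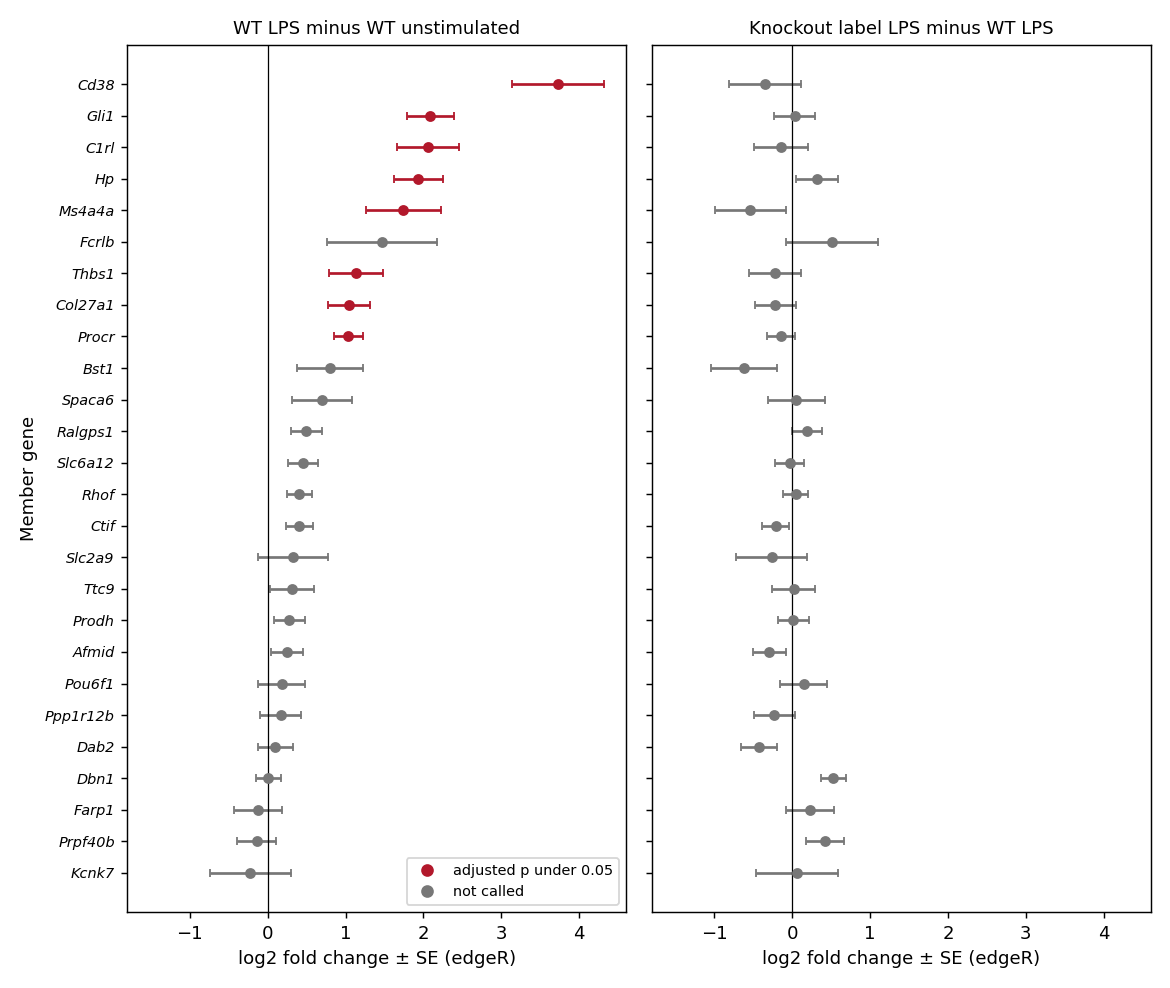
Log2 fold change ± SE of the 26 genes for WT LPS minus WT unstimulated libraries (left) and LPS knockout-labelled minus WT LPS libraries (right), ordered by the left panel. Red points have an edgeR adjusted p under 0.05. The 8 red points on the left lie between 1.04 and 3.72, and no point on the right is red.

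The comparison of LPS knockout-labelled with WT LPS BMDCs asked whether the labels differed once LPS was given. It shares the WT LPS libraries with the comparison above. The rule capped the values of both groups, so the counts for the set are not independent of the choice here either. Of the 26 genes edgeR called 0 in either direction, and over all genes tested 0.0% were called higher and 0.0% lower. DESeq2 also called 0 of the 26, and 152 of all genes. The median log2 fold change was -0.01 for the 26 genes and -0.01 for all genes, with 13 values positive and 13 negative. At an unadjusted p under 0.05 there was 1 gene of the 26 (10.2% of all genes), Dbn1, with 23.8 ± 0.921 CPM in LPS knockout-labelled and 16.3 ± 2.75 CPM in WT LPS libraries (log2 fold change 0.53 with SE 0.16, edgeR adjusted p = 0.369). The next smallest p values were those of Dab2 (log2 fold change -0.42 with SE 0.23, edgeR adjusted p = 0.557), Prpf40b (log2 fold change 0.42 with SE 0.25, edgeR adjusted p = 0.581) and Bst1 (log2 fold change -0.61 with SE 0.42, edgeR adjusted p = 0.643).

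The LPS knockout-labelled replicates differed for several of the genes. Replicate 1 was the higher one for 7 of the 26 genes, against 54.4% of all 10775 genes compared. The summed level of 20 monocyte and macrophage markers, none at 0 in all BMDC libraries, was 1582 and 2693 CPM in replicates 1 and 2 of the LPS knockout-labelled group. It was 4039 and 4097 CPM in the unstimulated knockout-labelled, 3659 and 2899 in the WT LPS and 4623 and 4932 in the WT unstimulated libraries. Lyz2, Apoe, Csf1r and Cd68 made up most of it (2031, 870, 617 and 497 CPM in WT unstimulated replicate 1). The sum was thus lower with LPS in WT cells, although more of the tested markers were called higher than lower. In bulk RNA, fewer cells of a type and less RNA per cell cannot be told apart, and the part of these markers in the values of Thbs1, Cd38, Bst1 and Ms4a4a was not tested. Without replicate 1 the log2 fold change was 0.21 for Thbs1 and 0.17 for Cd38, against -0.22 and -0.35 with it, and 0 of the 26 genes were called.

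Between LPS knockout-labelled and WT unstimulated BMDCs, which share libraries with both comparisons above, 9 of the 26 genes were higher and 0 lower. The rule used the values of these libraries too, so the counts for the set are likewise not independent of the choice. Of all genes tested 22.0% were higher and 20.9% lower, and the median log2 fold change was 0.43 for the 26 genes and -0.02 for all. The 9 were Cd38 (3.37, edgeR adjusted p = 0.00437), Hp (2.25, 0.000923), Gli1 (2.12, 0.00104), Fcrlb (1.98, 0.0431), C1rl (1.91, 0.00594), Procr (0.89, 0.00632), Col27a1 (0.83, 0.0387), Ralgps1 (0.68, 0.023) and Dbn1 (0.54, 0.026). DESeq2 called 10. With library size alone, which shifted the median of all genes by -0.18, the calls for Dbn1, Col27a1, Fcrlb and Ralgps1 were lost and 5 remained, while the split of all calls was 2041 higher and 3868 lower, against 2877 and 2727 with TMM. The call for Fcrlb was made under 4 of 13 alternatives (adjusted p 0.0203 to 0.346), that for Col27a1 under 5 (0.00292 to 0.143), and those for Dbn1 (0.0105 to 0.123) and Ralgps1 (0.0216 to 0.13) under 9 each. Of the monocyte and macrophage markers 6 were higher and 4 lower (median 0.20), and of the cDC1 markers 2 were higher and 8 lower (median -2.27), and their part was not tested. With both LPS knockout-labelled libraries edgeR did not call Thbs1 (log2 fold change 0.92 with SE 0.34, edgeR adjusted p = 0.0676). DESeq2, with the same libraries, called it higher (log2 fold change 0.93, DESeq2 adjusted p = 0.00287). Ms4a4a was not called by edgeR (log2 fold change 1.20 with SE 0.48, edgeR adjusted p = 0.0835). Without LPS knockout-labelled replicate 1 the edgeR log2 fold changes were 1.35 for Thbs1 and 1.71 for Ms4a4a. Without replicate 2, Dab2 was called lower (-0.74, adjusted p = 0.0293), against -0.33 with both. The log2 fold changes of the 26 genes between the unstimulated knockout-labelled and the WT unstimulated libraries, which chose the set, ran from 0.69 (Farp1) to 4.79 (Cd38). Of all genes 12.0% were called higher and 5.98% lower in that comparison (1575 and 782 genes), against 1282 and 1301 genes with library size alone, which shifted the median by -0.10.

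The tumoral libraries were not used to choose the genes. The tumoral and BMDC tables were scaled separately and come from different experiments, so levels across them are given without a test. In all 4 tumoral libraries Bst1, Thbs1, Fcrlb, Pou6f1, Cd38, Dab2, C1rl and Slc2a9 were above both unstimulated knockout-labelled BMDC libraries, and 12 genes were below both. Of all 13072 genes tested in the BMDCs, 28.6% were above and 33.2% below in the same way. Thbs1 had 1834 and 2334 CPM in the late and 378 and 4526 CPM in the early libraries. Early replicate 1 was thus far below the other 3. Dab2 had 753 and 862 CPM in the late and 436 and 506 CPM in the early libraries, against at most 37.0 CPM in any BMDC library. Per kilobase, Thbs1 (343 CPM per kb late, 404 early), Ms4a4a (186 and 108) and Dab2 (109.9 and 64.2) had the highest mean levels of the set in both stages. Gli1 (0.126 and 0.707 CPM late, 0.311 and 0.232 early) and Ttc9 (0.253 and 0 late, 0.104 and 0.348 early) stayed under 1 CPM in every tumoral library and had too few counts for a test.

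Late and early tumoral DCs were compared to ask how the genes moved as the tumor grew. Of the 24 genes tested edgeR called 0, and over all 13040 genes tested 0.0% were higher and 0.023% lower. The median log2 fold change was -0.03 for the 24 genes and 0.01 for all genes. At an unadjusted p under 0.05 there were 4 of the 24 genes (11% of all genes), and DESeq2 called 1. Library size alone shifted the median of all genes by -0.11, and 0 of the 24 were then called. Farp1 had 7.32 and 2.54 CPM in the late and 26.8 and 14.5 CPM in the early libraries, with no overlap (log2 fold change -1.95 with SE 0.51, edgeR adjusted p = 0.273), and is the gene that DESeq2 called lower (adjusted p = 0.00867). Dab2, also without overlap, was not called (log2 fold change 0.87 with SE 0.25, edgeR adjusted p = 0.283). Rhof had 18.3 and 14.8 CPM late and 26.4 and 38.0 CPM early (log2 fold change -0.88 with SE 0.31, edgeR adjusted p = 0.37), and Kcnk7 had 6 and 0 counts late and 39 and 16 counts early (log2 fold change -2.76 with SE 1.17, edgeR adjusted p = 0.444).

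Single libraries weighed heavily in this comparison. Without early replicate 2, 7 of the genes were called (Hp, Procr, Thbs1, Fcrlb, Dab2 and Ms4a4a higher, Farp1 lower), while of all 13510 genes then tested 1.99% were called higher and 2.24% lower. Thbs1 then had a log2 fold change of 2.68 (edgeR adjusted p = 1.85e-11). Without early replicate 1, 3 were called (Thbs1, Rhof and Farp1, all lower), while of all 13389 genes 2.10% were called higher and 5.84% lower. Thbs1 then had -1.10 (0.00971), against -0.21 with all 4 libraries. Hp had 30.1 and 11.7 CPM late and 8.45 and 32.1 CPM early, so the stages overlapped. The summed level of 18 neutrophil markers was 591 and 196 CPM late and 186 and 351 CPM early, highest in the same library of each pair as Hp, and its part in the values of Hp was not tested. The summed level of 12 T and natural killer cell markers was 258 and 107 CPM in the late and 1524 and 768 CPM in the early libraries (median log2 fold change -2.43), and that of 12 stromal and endothelial markers 343 and 145 CPM late and 1137 and 515 CPM early (-1.88). Early replicate 1 was the highest in both. The part of these markers in the values of Farp1, Rhof and Thbs1 was not tested.

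**Figure D4:**
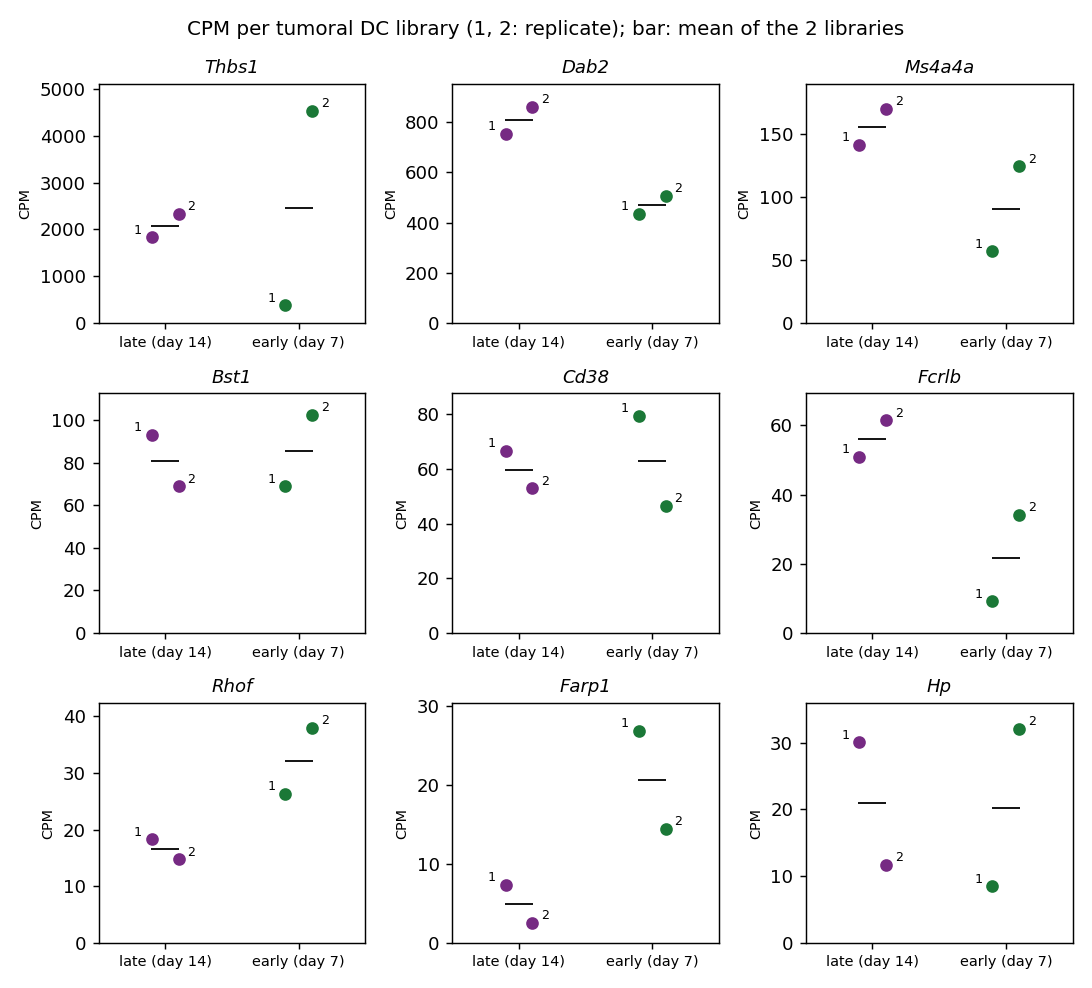
CPM of 9 of the genes in each tumoral library (points, numbered by replicate), with the mean of the late and of the early pair as a bar. Farp1 and Rhof were lower and Dab2, Ms4a4a and Fcrlb higher in both late libraries, without an edgeR call. Such separation was common. Of the 24 genes tested, 5 were above in this way (13.7% of all genes tested) and 7 below (28.4%). Thbs1 had 378 CPM in early replicate 1, below the 3 other points.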

How the data were processed

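The authors deposited raw counts for each gene symbol in a BMDC and a tumoral table, as whole numbers whose sum differs by library. The submitters' processing notes name the build mm10 and the tools featureCounts 2.0.1, HISAT2 2.2.1 and fastp 0.12.4, with no role given. The sources used here do not give the annotation release, the strand setting or the treatment of multimapping reads, and the labels' extraction protocol is for a different tissue. All columns matched a sample by name (0 unmapped).

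Each table was fitted on its own in R 4.3.3 with edgeR 4.0.16 (filterByExpr, TMM, robust glmQLFit, glmQLFTest), with 1 mean per group. Benjamini-Hochberg adjustment ran over every gene tested, and the threshold for a call was 0.05. The SE was the log2 fold change divided by the root of F. DESeq2 1.42.0, other scaling, no filter, the replicate block and each library left out were the alternatives. The steps were tested on simulated data.

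The 26 genes and the lists were chosen with earlier results of these data known. The rule for named genes took the largest ratios, the highest levels, list members, the called genes (or the 4 smallest p) and those next to the limit. The other genes were named so that each is accounted for. Positions and promoters are RefSeq's (GRCm38.p6), the same assembly as mm10, and exon lengths those of GENCODE M21.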

Additional observations from a re-analysis of the deposited data

How the results depend on the processing

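The size of the set depended on its limits. It was 11 with a ratio of 1.5, 0 with a ratio of 2, 40 with a minimum of 1 CPM and 14 with a minimum of 10 CPM, and 31 to 165 when each library was left out in turn (70 without unstimulated knockout-labelled replicate 1, 165 without replicate 2). Leaving a library out only lifts a condition of the rule, so the set then keeps all 26 genes and can only grow. A higher limit can likewise only remove genes, and a lower one only add them. With TMM the size was 27 and with DESeq2 size factors 25, each sharing 18 genes with the 26. Genes called for LPS in WT ranged from 5 to 8 with each library left out, and those between LPS knockout-labelled and WT unstimulated libraries from 6 to 8, with 5 under library size alone. For LPS knockout-labelled against WT LPS libraries the count was 0 under each alternative run. For late against early tumoral DCs it was 1 with DESeq2, 3 with no filter on low counts, and 0 to 7 with each library left out. The 1 reversal was Thbs1 in that comparison (2.68 without early replicate 2, -1.10 without early replicate 1). A library left alone in its group was assumed to vary like the others. For LPS in WT, and for LPS knockout-labelled against WT unstimulated libraries, fewer of all genes were also called whichever library was left out.

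The replicate numbers were not taken as pairs: same-numbered deviations correlated at -0.40 to 0.41 between BMDC groups and at -0.23 between tumoral groups. With the replicate block 7 genes were called for LPS in WT, 0 for the labels under LPS, 9 between LPS knockout-labelled and WT unstimulated libraries, and 1 for the tumoral stages. With the crossed block, added after seeing the data, the tumoral count was 0.

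Over all genes, calls for the labels under LPS were 0 in the main analysis, 152 with DESeq2, 56 with no filter, 2 with the block and 65 without LPS knockout-labelled replicate 2. Tumoral calls were 3, against 296 with DESeq2, 689 with no filter, 173 with the block and 1063 without early replicate 1. Calls for LPS in the knockout label were 0, against 765, 587, 321 and, without unstimulated knockout-labelled replicate 1, 615. The cause was not tested. With 2 libraries per group, depth limits genes near 2 CPM, such as Fcrlb, Kcnk7 and Farp1.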
